A study of Arabidopsis thaliana with 9 samples.

Results

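STOMAGEN and FMA are a pair of genes of stomatal development, and their transcripts were followed in Arabidopsis thaliana seedlings on a medium that contained an auxin and a cytokinin. They were found as the probe sets that the array annotation pairs with exactly 1 gene, that gene being STOMAGEN or FMA. This gave 2 probe sets, 1 for each gene, of 5521 probe sets with 1 named gene and 10343 probe sets in all. The genes were chosen by the signals on these same arrays, STOMAGEN for its much lower signal at 8 d than at 0 d and FMA as a stomatal factor whose signal was lower at 8 d. Their values are therefore given as a description, with standard errors but with no test.

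The samples were whole wild-type seedlings. The 0 d group was taken at an age of 4 days, before transfer to the hormones. The 2 d and 8 d groups were transferred at that age to Murashige and Skoog (MS) medium with 2.26 µM 2,4-D, a synthetic auxin, and 0.46 µM kinetin, a cytokinin, and were taken 2 days and 8 days later. Such hormone mixtures are used to make callus, a mass of dividing cells, and the study collected these arrays to set FPX, a chemical inducer of callus, beside the hormones. Each group had 3 Affymetrix arrays, and since the labels name no separate cultures, the spread between arrays may be technical. Treatment time and seedling age cannot be told apart, and hormone-free seedlings harvested at 2 d or 8 d were not analysed here.

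Stomata are pores in the leaf epidermis, each bounded by a pair of guard cells. Their number is set by small secreted peptides that compete for receptors of the ERECTA family and the co-receptor TMM. EPF1 and EPF2 are made in the epidermis and limit stomata, whereas STOMAGEN, also called EPFL9, is made in the mesophyll below and promotes them. Inside the lineage the basic helix-loop-helix factors SPCH, MUTE and FMA act in succession. FMA, also called FAMA, ends the divisions of the guard mother cell and starts guard cell differentiation, and it is also needed for myrosin cells. Auxin signalling through the factor ARF5 (MONOPTEROS) is known to lower STOMAGEN transcription, and light raises it through HY5.

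STOMAGEN (locus AT4G12970, chromosome 4, 1 RefSeq transcript) was measured by probe set 254794_at, and FMA (locus AT3G24140, chromosome 3, 2 RefSeq transcripts) by probe set 257247_at. Each value is the signal of a probe set, a linear intensity that the authors had already scaled between arrays. A signal depends on the probes as well as on the transcript, so the level of one gene is not set against that of the other.

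The deposited table had been narrowed before deposit. In a one-way F test between the time points on these arrays, 99.8% of its 10343 probe sets had p under 0.05. Adjusted p-values from the table are therefore too small, and a gene outside it was not analysed here. How many of all probe sets had groups without overlap was not counted, so a lack of overlap is given below only as a description. Array medians rose with time, from 445 to 452 at 0 d, 501 to 510 at 2 d and 538 to 546 at 8 d. The array of 2 d replicate 1 stood furthest from the other 2 of its group, at a root mean square difference of 0.366 on the log2 scale, against 0.206 to 0.318 for the other 8 arrays. Calls were made with limma and needed both an adjusted p under 0.05 and a difference of 1 or more, up or down, in mean log2 signal.

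The transcript of the peptide STOMAGEN had by far its lowest signal at 8 d. STOMAGEN signal was 560, 509 and 644 at 0 d, 263, 431 and 514 at 2 d, and 37.0, 9.40 and 56.8 at 8 d in replicates 1, 2 and 3. All 3 arrays of 8 d lay below every other array, while the 2 d and 0 d arrays overlapped, with 2 d replicate 3 above 0 d replicate 2. Mean signal was 571 ± 68.1 at 0 d, 402 ± 128 at 2 d and 34.4 ± 23.8 at 8 d (SD, n = 3 each). In bulk tissue, fewer cells that make a transcript and less of it in each cell cannot be told apart.

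**Figure D1:**
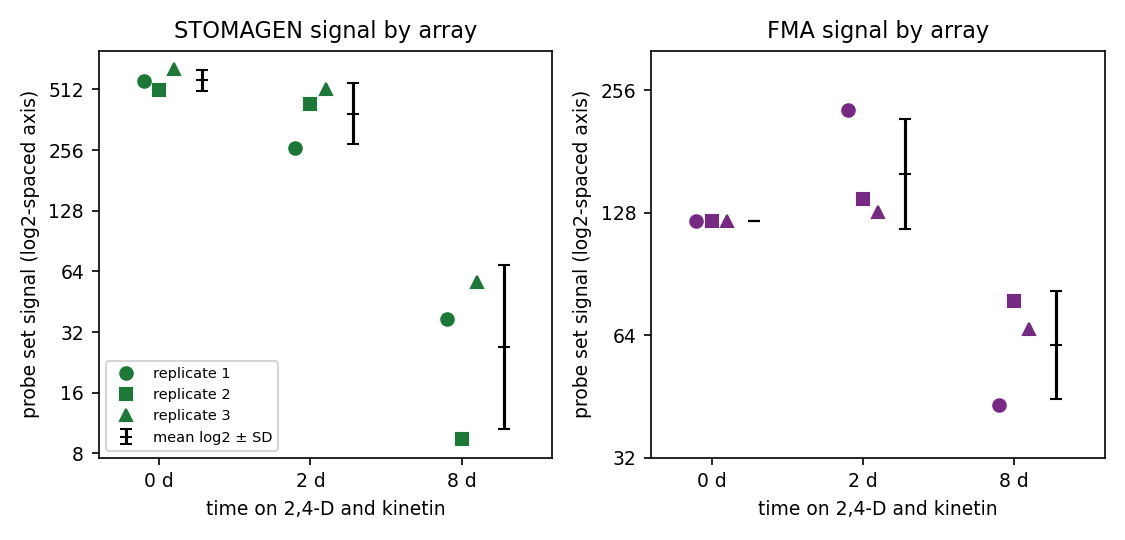
Signal of STOMAGEN (left) and FMA (right) on each of the 9 arrays at 0 d, 2 d and 8 d, on log2-spaced axes with different ranges. Symbols mark the replicates and the bars show the mean log2 signal ± SD of 3 arrays; both genes are lowest at 8 d, and STOMAGEN in 8 d replicate 2 lies at 9.40.

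At 8 d, mean STOMAGEN signal was 6.02% of that at 0 d. The difference in mean log2 signal was -4.40 (SE 0.53), and even the closest pair of arrays, 8 d replicate 3 and 0 d replicate 2, differed 8.97-fold. Only 10 of 10343 probe sets had a lower change at 8 d against 0 d, and among the 5521 with 1 named gene STOMAGEN was the 4th lowest, between AT2G36145 at -4.45 and AT5G44440 at -4.34. At 8 d against 2 d its difference was -3.84 (SE 0.53), with mean signal at 8.54% of that at 2 d and the closest arrays 4.63-fold apart. In that comparison 1 probe set had a lower change. At 2 d against 0 d the difference was -0.55, and 13.6% of all probe sets had a lower change. Its SE was 0.53 with the spread shared over all groups, the widely spread 8 d arrays among them. In a fit to the 0 d and 2 d arrays alone the SE was 0.23. Most of the STOMAGEN difference thus lay between 2 d and 8 d.

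The exact size of the STOMAGEN difference rests on very dim signals. In 8 d replicate 2 it was the dimmest of all 10343 probe sets, in replicate 1 only 42 probe sets were dimmer and in replicate 3 only 162. At 0 d, by contrast, 53.8% to 61.7% of probe sets were dimmer. The SD of its log2 signal at 8 d was 1.36, against a median of 0.295 for the 500 probe sets nearest in mean signal, all of them brighter. Without 8 d replicate 2 the difference from 0 d was -3.63 (SE 0.28), and after 64 was added to every signal it was -2.72 (SE 0.21). Detection calls were not used here, so whether the 8 d signals lie above background was not tested.

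FMA, the guard cell factor, had its lowest signals at 8 d, with a smaller difference than STOMAGEN, and its level at 2 d was not settled against 0 d. FMA signal was 122.4, 122.1 and 122.2 at 0 d, 228, 139 and 128 at 2 d, and 43.1, 77.6 and 66.3 at 8 d in replicates 1, 2 and 3. The groups did not overlap, but 2 d replicate 3 was only 1.05-fold above the highest 0 d array, and 2 d replicate 1 stood well above both other 2 d arrays. Mean signal was 122.2 ± 0.119 at 0 d, 165 ± 55.0 at 2 d and 62.3 ± 17.6 at 8 d (SD, n = 3 each).

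At 8 d, FMA signal was 51.0% of that at 0 d by group means, a difference in mean log2 signal of -1.01 (SE 0.24), and the closest arrays were 1.57-fold apart. Of all probe sets, 17.8% had a lower change, so FMA was far from the extreme at which STOMAGEN lay. Its neighbours in the order of named probe sets were AT4G25370 at -1.02 and AT1G65900 at -1.01. At 8 d against 2 d the difference was -1.40 (SE 0.24), with mean signal at 37.8% of that at 2 d, the closest arrays 1.65-fold apart and 8.43% of probe sets lower. At 2 d against 0 d it was 0.38 (SE 0.24), with 62.8% of probe sets lower, at a median of 0.19 over all probe sets. Without 2 d replicate 1 the 2 d difference was 0.13, and after quantile normalization it was 0.018, so a higher FMA signal at 2 d rests on that array and on the scaling.

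**Figure D2:**
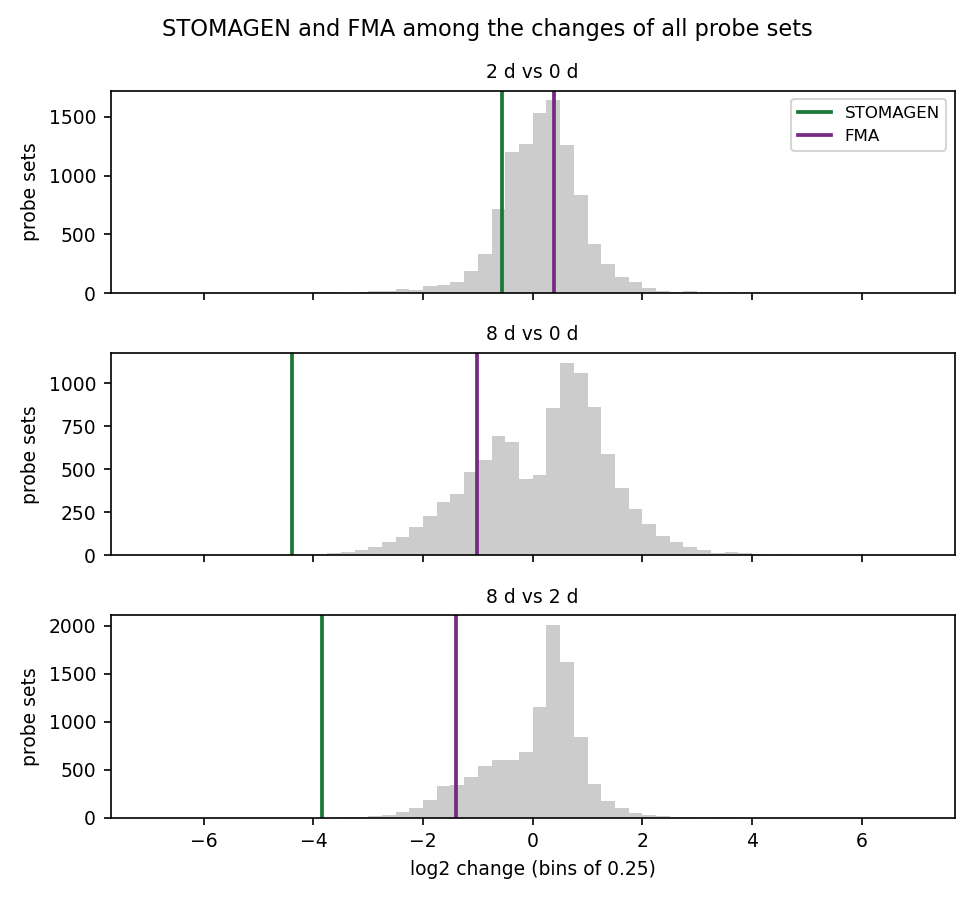
Differences in mean log2 signal of all 10343 probe sets in bins of 0.25 (grey bars) for the 3 comparisons, with STOMAGEN (green line) and FMA (purple line). STOMAGEN lies at the far left at 8 d (-4.40 against 0 d, -3.84 against 2 d), while FMA lies within the left flank (-1.01 and -1.40).

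The spread of the genes between arrays also differed. FMA at 0 d had an SD of 0.0014 on the log2 scale, smaller than in any of the 500 probe sets nearest in signal, whose median SD was 0.204, and only 3 of 10343 probe sets had a smaller one. Whether this near identity comes from the processing was not tested, so the 0 d SD may not show the true spread between arrays. At 2 d and 8 d its SD was 0.451 and 0.440, above the medians of the 500 probe sets nearest in signal, 0.207 and 0.294. At 8 d, 347 of those 500 were brighter than FMA. For STOMAGEN the SD was 0.171 at 0 d and 0.501 at 2 d, against medians of 0.107 and 0.159. All these medians come from the narrowed table, whose probe sets nearly all pass the F test. They may therefore be smaller than over the whole array. On 2 d replicate 1, the array that stood apart, STOMAGEN was 0.84 below the mean of the other 2 arrays on the log2 scale and FMA was 0.78 above it.

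**Figure D3:**
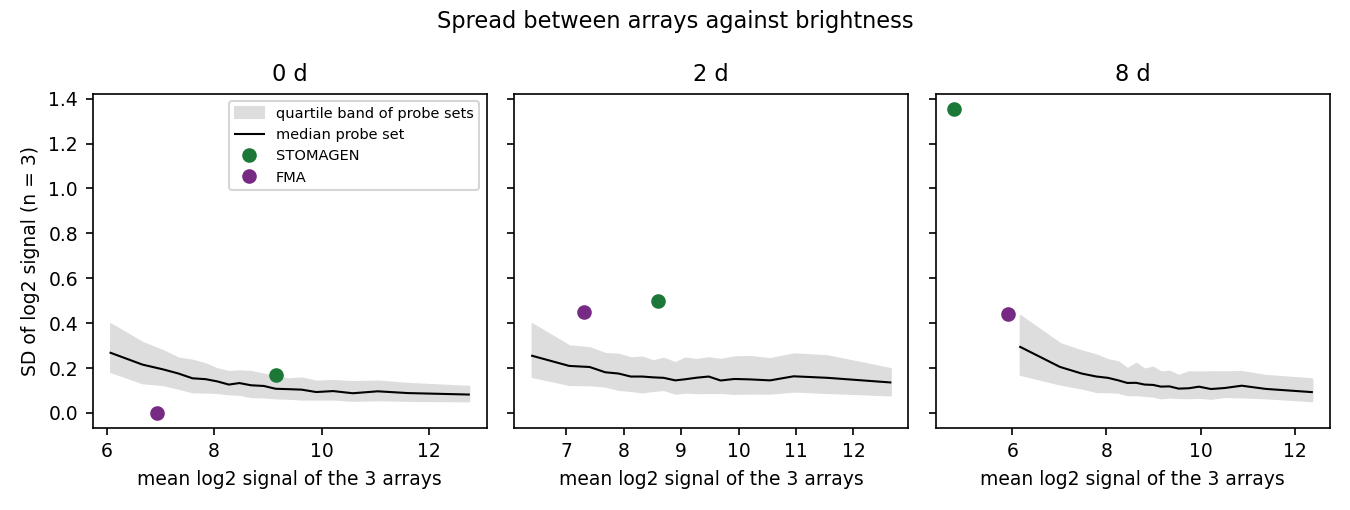
SD of log2 signal over the 3 arrays of a group against the mean log2 signal, at 0 d, 2 d and 8 d. The black line is the median probe set and the grey band spans the lower to the upper quartile, in 20 bins of brightness; STOMAGEN at 8 d (SD 1.36) stands far above the line and FMA at 0 d (SD 0.0014) on the floor.

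Few other genes of the stomatal pathway could be followed. Of 75 further genes in 6 lists written from general knowledge, 3 were measured and 72 were not analysed here. In this sense no member of the list of peptide ligands and their proteases was measured, and none of the receptors and kinases. The same held for the upstream regulators of STOMAGEN, such as ARF5 and HY5, and for the myrosin cell genes. Measured were TSO1, from the list of transcription and division genes, and the loci AT1G22690 and AT2G16630 from the guard cell list, which the reference names only by locus.

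Between 2 d and 8 d both guard cell loci fell, as 2 of the 3 genes called, at a share of 22.1% called over all probe sets. AT2G16630 had signals of 856, 838 and 1021 at 0 d, 895, 810 and 935 at 2 d, and 295, 448 and 411 at 8 d. The 8 d arrays lay below all others, and those of 0 d and 2 d overlapped. AT2G16630 fell by 1.25 (SE 0.16) at 8 d against 0 d (limma, adjusted p = 3.47e-05). It also fell at 8 d against 2 d, with a difference of -1.21 (SE 0.16; limma, adjusted p = 9.56e-05), and was at -0.04 (SE 0.16) at 2 d.

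AT1G22690 had signals of 1020, 1095 and 1164 at 0 d, 1768, 1489 and 1998 at 2 d, and 546, 669 and 779 at 8 d. No group overlapped another, and the 2 d arrays were the highest. AT1G22690 fell by 1.40 (SE 0.15) at 8 d against 2 d (limma, adjusted p = 3.04e-05). It was at 0.67 (SE 0.15) at 2 d and at -0.73 (SE 0.15) at 8 d against 0 d, both short of the fold threshold, though the last passed it after median centring (-1.003).

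TSO1, which encodes a nuclear protein with cysteine-rich motifs that acts in cell division, went the other way. Its signals were 288, 295 and 360 at 0 d, 511, 424 and 483 at 2 d, and 720, 743 and 616 at 8 d, with no overlap between groups. TSO1 rose by 1.14 (SE 0.13) at 8 d against 0 d (limma, adjusted p = 1.46e-05), but fell short of the threshold after quantile normalization and after median centring (0.87 in each). It was at 0.59 (SE 0.13) at 2 d and at 0.55 (SE 0.13) at 8 d against 2 d. In all, 1 of the 3 genes was called higher and 1 lower at 8 d against 0 d, where 43.5% of all probe sets were called. At 2 d limma called 0 of the 3, with 2 at an unadjusted p under 0.05, where 14.9% of all probe sets were called.

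**Figure D4:**
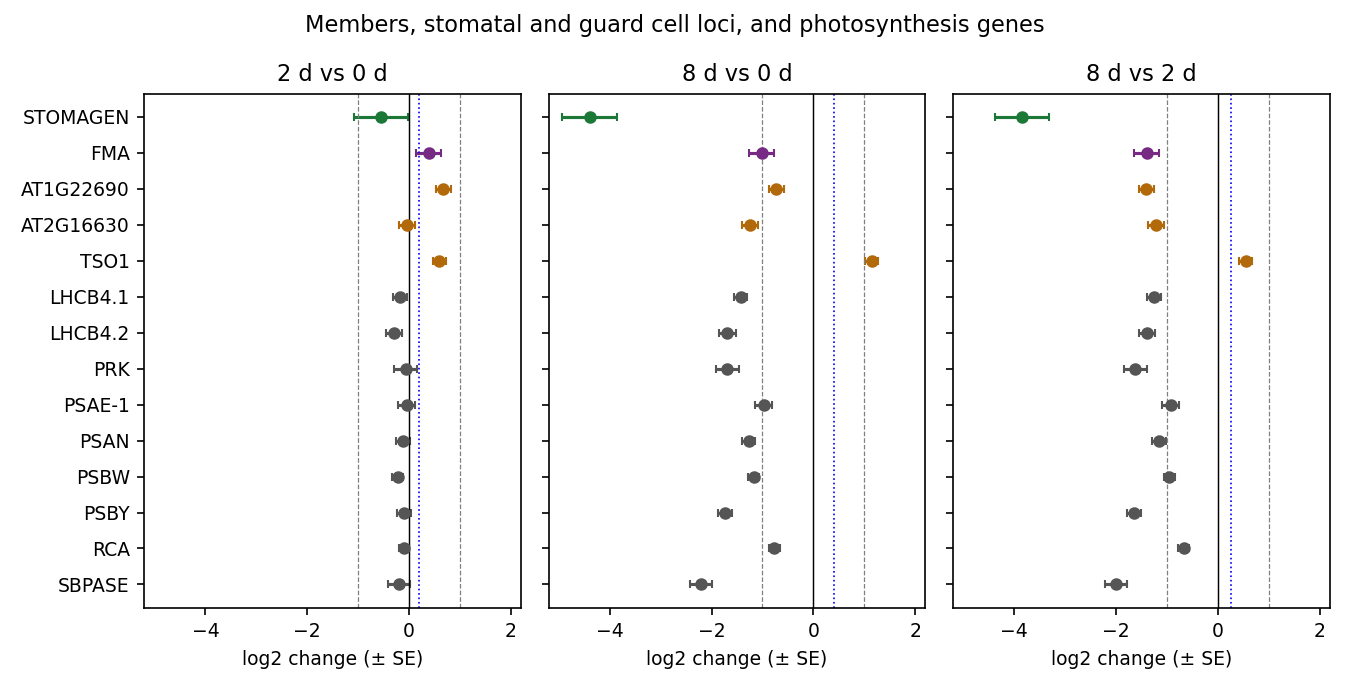
Differences in mean log2 signal ± SE for STOMAGEN, FMA, the loci AT1G22690 and AT2G16630 of the guard cell list, TSO1 and 9 photosynthesis genes in the 3 comparisons. Dashed lines mark a log2 change of 1 either way and the blue dotted line the median of all probe sets; STOMAGEN (-4.40 at 8 d against 0 d) lies below the photosynthesis genes (-2.20 to -0.76).

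STOMAGEN is known to be made in mesophyll, the photosynthetic tissue of the leaf, so the photosynthesis genes measured on the same arrays are given beside it. Of 29 listed, 9 were measured, and none was listed at 0 on any array. Their summed signal ran from 105970 to 121150 at 0 d, from 93127 to 114060 at 2 d and from 39749 to 53955 at 8 d. At 8 d against 0 d 7 of the 9 were called lower, at a share of 18.1% of all probe sets called lower. All 9 differences were negative, the highest at -0.76, with a median of -1.43 against 0.40 over all probe sets. Those not called missed only the fold threshold. SBPASE of the Calvin cycle had the lowest value, -2.20 (SE 0.21), followed by PSBY, a small photosystem II protein, at -1.74 (SE 0.14), PRK, also of the Calvin cycle, at -1.69 and LHCB4.2, a light-harvesting protein, at -1.69, and all of these passed the test. After quantile normalization 4 of the 9 were called.

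The photosynthesis genes, like STOMAGEN, had their lowest values late. At 8 d against 2 d 6 of the 9 were called lower, at a share of 14.7% of all probe sets called lower. All 9 differences were again negative, the highest at -0.67, with a median of -1.25 against 0.26 over all probe sets. At 2 d against 0 d limma called 0 of the 9, and 0 had an unadjusted p under 0.05, with values from -0.30 to -0.05, at a share of 14.9% of all probe sets called in either direction. The STOMAGEN differences at 8 d, -4.40 and -3.84, were below all 9 in both comparisons, which share the 8 d arrays. Those of FMA, -1.01 and -1.40, lay within the range of the 9. The 9 were far brighter, with mean signals of 8680 to 17009 at 0 d against 571 for STOMAGEN. Sizes are therefore not compared at like brightness. No gene of the epidermis list of 10 was measured. Of the root list of 8, EXPA7, a root hair expansin, was measured, with mean signals of 537 at 0 d, 103 at 2 d and 94.3 at 8 d. EXPA7 fell at 2 d, with a difference of -2.44 (SE 0.31; limma, adjusted p = 0.00013), and was lower at 8 d against 0 d, at -2.53 (SE 0.31; limma, adjusted p = 2.57e-05), below all 9 photosynthesis genes in both comparisons. At 8 d against 2 d it was at -0.10 (SE 0.31) and was not called. The part of a changed makeup of tissues in the STOMAGEN and FMA values was not tested.

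The named genes with the course most like that of STOMAGEN were sought by the root mean square difference, over the 9 arrays, of log2 signal minus its 0 d mean. The closest was AT1G04800 at 0.702, with differences of -0.53 at 2 d and -3.80 at 8 d against 0 d. AT2G36145, AT4G18970, AT2G37870, AT5G48490 and the methionine sulfoxide reductase gene MSRB6 followed at 0.711 to 0.793. Their 8 d differences from 0 d ran from -4.45 for AT2G36145 to -3.70 for AT5G48490. At 2 d they parted more, from -1.33 for MSRB6 to 0.13 for AT5G48490. All 6 had mean signals of 1309 or more at 0 d, against 571 for STOMAGEN. When 8 d replicate 2 was left out, only 1 of the 6 stayed among the 6 most alike, and with any other array left out 5 or 6 did.

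For FMA the closest course was that of AT4G09040, at a root mean square difference of 0.256, with differences of 0.31 at 2 d and -0.99 at 8 d against 0 d. AT5G48220, AT5G17700, AT4G26370, TBL45 of the TRICHOME BIREFRINGENCE-LIKE family and the cytochrome P450 gene CYP71B34 followed at 0.264 to 0.285. Their 2 d differences ran from 0.37 for AT5G48220 to 0.49 for AT5G17700, and those at 8 d from -1.24 for AT5G17700 to -0.79 for TBL45. When 2 d replicate 1 was left out, none of the 6 stayed among the 6 most alike. Without 8 d replicate 1 only 2 did, so this list is not stable. STOMAGEN and FMA lay 2.21 apart by this measure, which counts the size of the differences as well as their course. For STOMAGEN, FMA came at place 1133 of 5520 other named probe sets. For FMA, STOMAGEN came at place 5389.

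**Figure D5:**
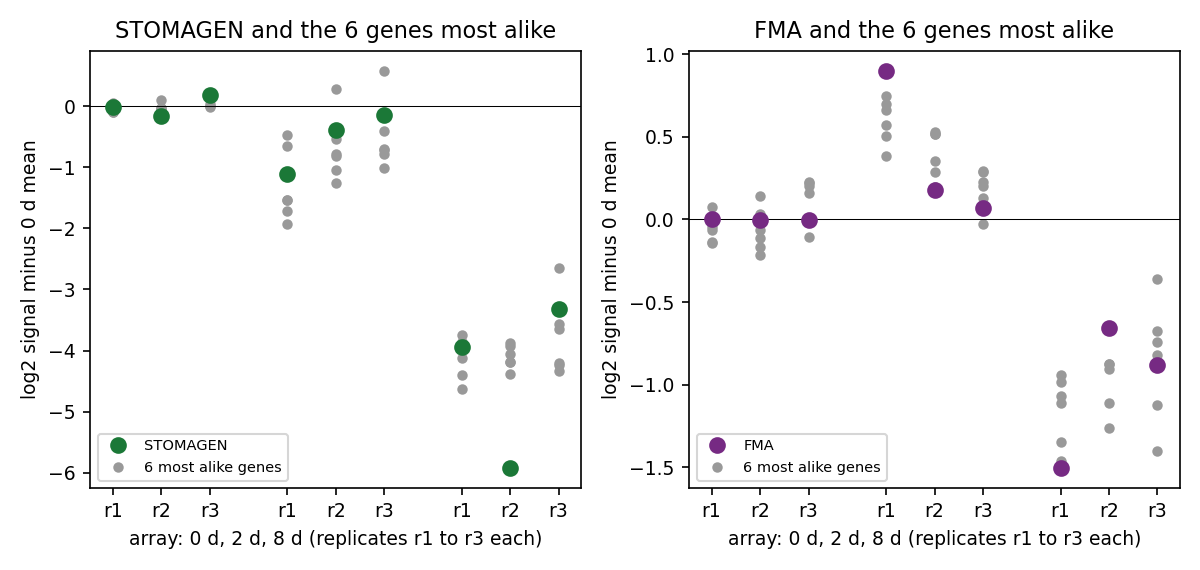
Log2 signal minus the 0 d mean on each of the 9 arrays for STOMAGEN (left, green) and FMA (right, purple) with the 6 named genes most alike (grey); the vertical scales differ. STOMAGEN in 8 d replicate 2 lies below all 6 of its genes, and FMA in 2 d replicate 1 lies above all 6 of its own.

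Genes beside STOMAGEN and FMA on the chromosome went both ways. Of the 20 genes nearest to STOMAGEN, 10 on each side, 6 were measured. At 8 d against 0 d 3 of the 6 were called, near the 43.5% called over all probe sets, with scpl20, of the serine carboxypeptidase-like family, at 3.01, AT4G13030 at 1.52 and AT4G12980, the next gene, at -1.44. At 2 d 1 of the 6 was called, scpl20 at 2.85, where 14.9% of all probe sets were called, and AT4G12980 was at 0.22. At 8 d against 2 d 2 of the 6 were called, AT4G12980 at -1.67 and AT4G13030 at 1.47, where 22.1% of all probe sets were called. Of the 20 genes nearest to FMA 5 were measured, and 3 were called at 8 d against 0 d, again at a share of 43.5% over all probe sets, with AT3G24080 at 1.96, AT3G24120 at 1.58 and AT3G24100 at -1.09. At 2 d 2 of the 5 were called, AT3G24080 at 1.12 and AT3G24190 at 1.01 (SE 0.13), against the 14.9% over all probe sets. At 8 d against 2 d 1 of the 5 was called, AT3G24190 at -1.49 (SE 0.13), against 22.1% over all probe sets. This set of neighbours was chosen after the values of STOMAGEN and FMA were known.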

How the data were processed

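Whole-seedling RNA was measured on 9 arrays, grouped by sample title into 0 d, 2 d and 8 d with 3 arrays each. The deposited table gives the signal of each probe set as a linear intensity. Per the submitters' processing notes MAS5 was used, but its version, its scaling target and how the probe sets of the table were picked are not given in these sources. MAS5 usually scales arrays to one target, so values are relative to the other transcripts on an array.

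Log2 was taken with no further scaling. After the 23 controls were left out, limma 3.58.1 (lmFit, eBayes; R 4.3.3) fitted 1 mean per group to 10343 probe sets, using all 9 arrays, with two-sided p-values adjusted by Benjamini-Hochberg over all of them. The thresholds were an adjusted p of 0.05 and a log2 change of 1. In a simulation of 2 d against 0 d with 10343 probe sets, changes were planted in 50 at each size. There limma called 60% of those changed by 1 on the log2 scale, 100% at 1.5, 92% at 2 and 100% at 3, with 1 false call. Its noise was normal and its probe sets were not picked by a test, unlike those of the narrowed table. Its false calls therefore do not give the error of the calls reported here.

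Names came from the array annotation, updated through RefSeq's TAIR10.1 gene table (5503 of 5521 matched; 214 probe sets have several genes and 4608 are unnamed here). A listed gene with several probe sets was read from the brightest. The members and the 9 lists of 122 genes were chosen with earlier results of these data known. Named are STOMAGEN, FMA, every measured gene of the stomatal and guard cell lists, up to 4 of each other list with the largest changes at 8 d against 0 d, the 6 genes most alike to each member and those next to each in the order of change. No arrays held identical values.

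The correlation of deviations from group means between same-numbered arrays ran from -0.0906 to 0.231 over 9 pairs. Differently numbered arrays were not set beside them, so these values cannot decide whether the numbers pair samples. Replicate numbers were not used as pairs in the main fit. Alternatives were other scalings (quantile normalization, and centring on 6 hybridisation controls, the 75th percentile or the median), 16 or 64 added to signals, a filter on the dimmest 40%, array weights, a robust trended prior, fits to 2 groups at a time, a replicate block and leaving out each array; group medians and leave-one-out lists of alike genes were added after the data were seen.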

Additional observations from a re-analysis of the deposited data

How the results depend on the processing

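The differences of STOMAGEN and FMA kept their sign under every alternative run, but some of these runs could not change them. The robust trended prior, the fits to 2 groups, the replicate block and leaving out an array outside the comparison give the same differences by construction. Only the errors can differ there. The dimmest 40% could not be left out for STOMAGEN and FMA, since both probe sets belong to it. With 64 added to each signal, the difference at 8 d against 0 d was -2.72 for STOMAGEN and -0.57 for FMA, and at 8 d against 2 d it was -2.24 and -0.84; an added constant shrinks log2 differences of dim probe sets by construction. With array weights STOMAGEN was at -4.74 at 8 d against 2 d. After quantile normalization FMA was at 0.018 (SE 0.23) at 2 d, too small against its error to give a direction. The cause of these shifts was not tested.

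With 1 array left out at a time, STOMAGEN ran from -0.76 (without 2 d replicate 3) to -0.27 (without 2 d replicate 1) at 2 d, from -4.93 to -3.63 at 8 d against 0 d and from -4.38 to -3.08 at 8 d against 2 d, the last 2 pairs without 8 d replicate 3 and without 8 d replicate 2. FMA ran from 0.13 to 0.54 at 2 d, from -1.19 to -0.77 at 8 d against 0 d and from -1.58 to -1.14 at 8 d against 2 d. Group medians gave -3.92 for STOMAGEN and -0.88 for FMA at 8 d against 0 d. The replicate block could not change the differences from the main fit, since every group holds the same replicate numbers. It altered only their errors (STOMAGEN at 8 d against 0 d -4.40, SE 0.46 in place of 0.53). No call of the 3 stomatal and guard cell genes changed with it.

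Leaving out the dimmest 40% gave 703, 2444 and 1363 called probe sets at 2 d, at 8 d against 0 d and at 8 d against 2 d, against 1546, 4502 and 2285, since fewer were tested; 64 added gave 965 at 2 d. After quantile normalization 1 of the 3 stomatal and guard cell genes and 4 of the 9 photosynthesis genes were called at 8 d against 0 d. AT2G16630 at 2 d, near 0, turned to 0.16 after centring on hybridisation controls, to 0.053 without 0 d replicate 3 and to 0.022 without 2 d replicate 2, and ran from -0.089 to 0.053 with 1 array left out at a time. Signal near the bottom of the arrays limits the STOMAGEN and FMA values at 8 d.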

Other observations

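On 7 of the 9 arrays STOMAGEN and FMA lay on opposite sides of their group means. At 0 d FMA lay at most 0.0016 from its mean on the log2 scale, so its side there carries no weight. Deviations within a group of 3 sum to 0, so the 9 arrays are not independent of each other. How often other pairs of genes lie on opposite sides was not counted, and no test was run.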
